A study of Mus musculus with 8 samples.

Results

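The genes described here carry chloride, bicarbonate and protons across the intestinal epithelium. They are the chloride channel gene Cftr, the exchanger genes Slc26a3, Slc26a6 and Slc9a3, the cotransporter genes Slc12a2 and Slc4a4, and the carbonic anhydrase genes Car1, Car2 and Car4. The members were chosen by name, through the 15 non-control probes whose RefSeq accession belongs to 1 of these 9 genes, out of 39429 non-control probes on the array. All 9 were among the 21303 genes tested, and each was well above background on all 8 arrays through the probe used for it.

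The study used Agilent 1-colour arrays on small intestine from male and female C57BL/6J Min/+ mice and compared a Western with a control diet. Min/+ mice carry a truncating Apc allele and develop intestinal tumours. All 4 groups carried it, so no group without the allele enters any comparison here. The control groups received the semisynthetic AIN-93G diet without modification. The Western groups received a version of it that was rich in fat and poor in fiber, vitamin D, calcium and folate, with 66.4% of its fat taken from milk and the remaining 33.6% from the oils of rapeseed and sunflower. Feeding is given as 18 months, and the age of the mice is not given in the sources used here. Each group had 2 arrays, each holding RNA pooled from 1 to 3 mice. The labels do not say whether the tissue was free of tumours, nor that the arrays of a group came from separate mice, so the p-values measure only the spread between arrays, which may be technical. The RNA came from whole tissue, in which fewer cells of a type and less RNA per cell cannot be told apart.

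In the intestine, crypt cells secrete chloride and fluid, and villus enterocytes absorb sodium chloride. Secreting cells load chloride across the basolateral membrane with the Slc12a2 product NKCC1 and release it into the lumen through the CFTR channel. Absorbing cells pair sodium-proton exchange (NHE3, from Slc9a3) with chloride-bicarbonate exchange (DRA from Slc26a3, PAT1 from Slc26a6) at the brush border. Carbonic anhydrases supply the bicarbonate and protons that are exchanged, and the Slc4a4 product NBCe1 brings bicarbonate in across the basolateral membrane.

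Signals are given as log2 of the processed intensity minus the log2 of the array's 75th percentile, so 0 is the brightness of a probe at that percentile. Levels of different genes are not set against each other, because each comes from its own probe. In every list of values the males come before the females and the first array of a group before the second. The 75th percentile lay between 488 and 907 intensity units, and 55.1% to 61.9% of probes were well above background on 7 arrays. The eighth array, Control female 2, had 75.6% above background and lay at -146.3 on the first principal component (43.4% of the variance), against -2.1 to 33.4 for the others. In the library labelled Control female 1, Y-linked genes read as they did in males. Its Ddx3y signal was -0.46, against -1.05 to -0.68 in the males and -7.57 to -6.91 in the other females, and the name of its deposited file carries the tag of the Western diet arrays. It is kept here under its label, and the members' diet differences are given with and without it and Control female 2. Markers of small intestine were detected: all 20 villus enterocyte genes, all 14 tested crypt and cycling cell genes (of 15 listed) and all 7 ileum genes were above background on every array. Detection alone does not settle the region. All 3 tested duodenum genes (of 6 listed) and 5 to 6 of the 6 tested colon genes (of 11 listed) were also above background on every array. Added up on the linear scale, the colon genes gave 52.3 on Western male 1 and 4.91 to 20 on the other arrays.

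With limma and Benjamini-Hochberg adjustment, none of the 9 genes passed an adjusted p of 0.05 in the diet comparison, where 0% of all 21303 genes tested were called. At an unadjusted p under 0.05 there were 927 genes, 134 higher and 793 lower on the Western diet. The higher genes were 14.5% of these, but 60.3% with quantile normalization and 49.4% without Control female 2. The number of genes was 3007 without the library labelled Control female 1 and 589 without Western male 2. Among the transport genes, 3 had a higher mean on the Western diet and 6 a lower one, with a median log2 difference of -0.111, against -0.0612 over all genes tested. Slc4a4 was the 1 member with an unadjusted p under 0.05, where 3.72% of all genes reached that in the lower direction. Slc4a4 was also the 1 member whose 4 Western arrays all lay below the 4 control arrays (2.35% of all genes), and Slc26a3 the 1 member whose 4 Western arrays all lay above them (0.827% of all genes).

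**Figure D1:**
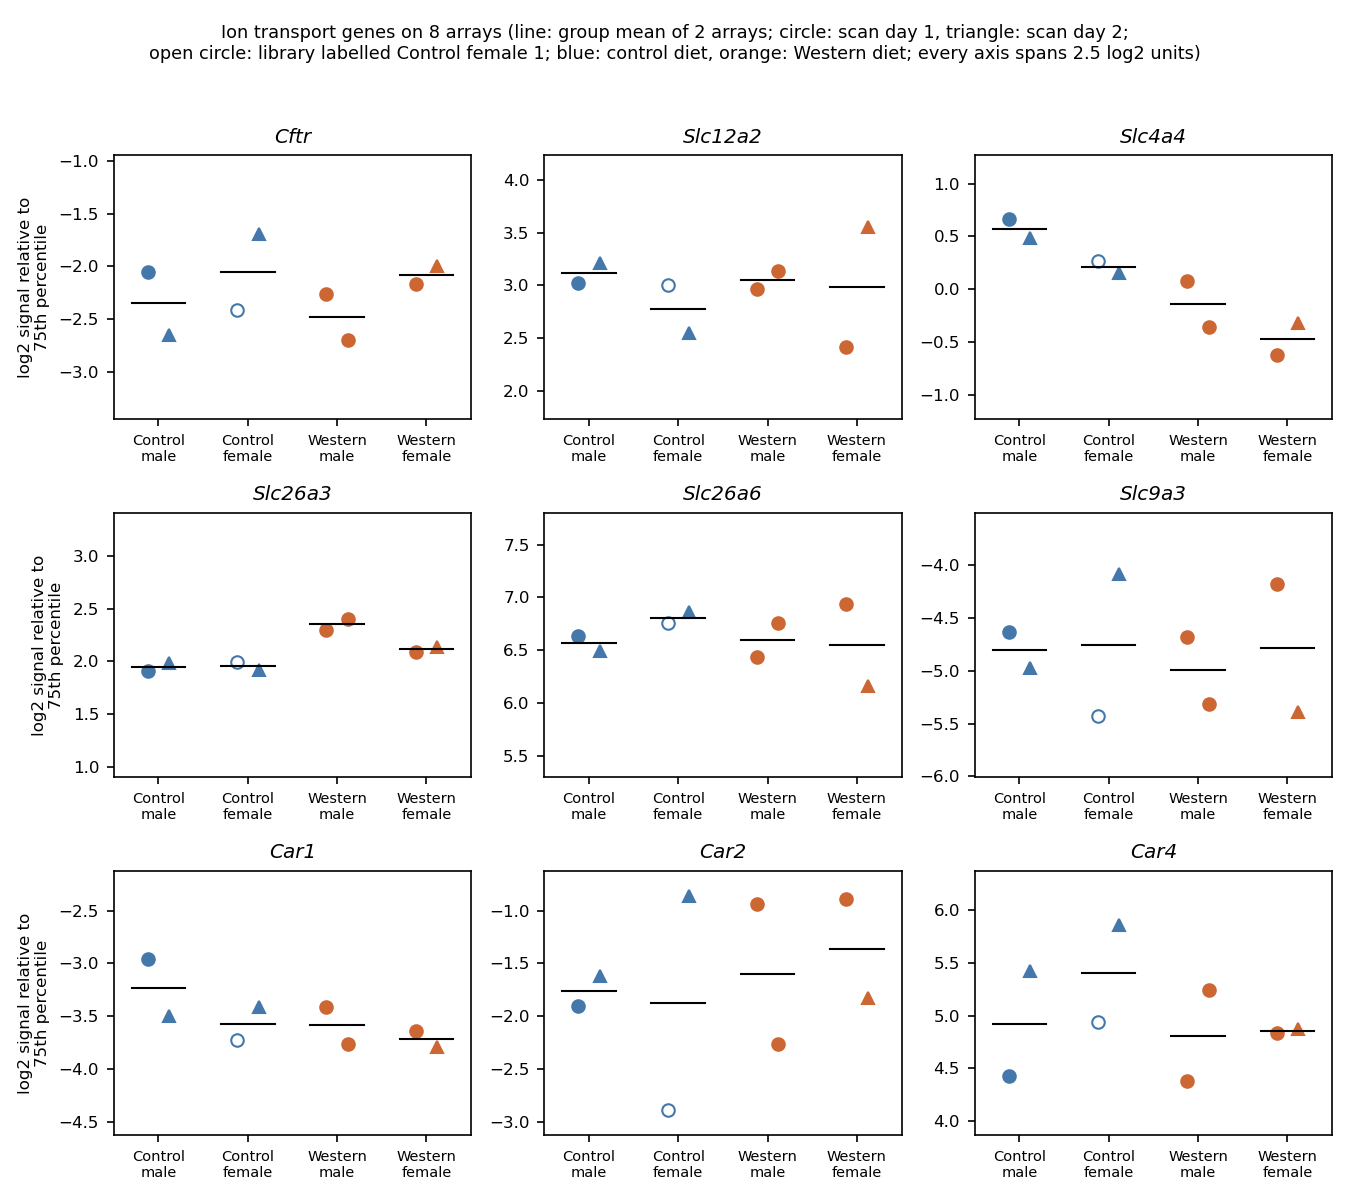
Log2 signal relative to the array's 75th percentile (vertical axis, each spanning 2.5 log2 units) of 9 ion transport genes on 8 arrays in 4 groups (horizontal axis), blue for control and orange for Western diet, circles for scan day 1 and triangles for scan day 2, with a line at the mean of 2 arrays and an open circle for the library labelled Control female 1. The diets do not overlap for Slc4a4 (0.15 to 0.66 against -0.62 to 0.08) and Slc26a3 (1.91 to 1.99 against 2.09 to 2.40), and overlap for the other genes.

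RefSeq start site windows (assembly GRCm38.p6, 250 bases before to 50 after the start) were found for 6 of the 9 genes. Those of Slc26a3 and Slc4a4 are shown because these are the genes whose diets did not overlap, and Slc4a4 is the member with more than 1 window: it has 2 starts, while Cftr, Slc26a3, Slc26a6, Slc9a3 and Car4 have 1 each. The Slc26a3 window lies at chr12:31437969-31438268 on the plus strand and is 39.3% G and C. The Slc4a4 windows lie at chr5:88887010-88887309 (80% G and C) and chr5:89027716-89028015 (48.3% G and C), both on the plus strand. Each sequence reads 5′ to 3′, and the capitals mark a match to TATAAA, whose first base lies at -30 from the Slc26a3 start.
Slc26a3: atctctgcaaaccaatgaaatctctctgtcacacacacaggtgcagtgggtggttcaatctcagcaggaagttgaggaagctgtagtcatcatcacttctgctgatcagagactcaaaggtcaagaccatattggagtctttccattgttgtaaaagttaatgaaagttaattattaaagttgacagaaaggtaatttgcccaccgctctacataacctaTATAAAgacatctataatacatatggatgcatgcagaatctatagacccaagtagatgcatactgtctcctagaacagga
Slc4a4 start 1: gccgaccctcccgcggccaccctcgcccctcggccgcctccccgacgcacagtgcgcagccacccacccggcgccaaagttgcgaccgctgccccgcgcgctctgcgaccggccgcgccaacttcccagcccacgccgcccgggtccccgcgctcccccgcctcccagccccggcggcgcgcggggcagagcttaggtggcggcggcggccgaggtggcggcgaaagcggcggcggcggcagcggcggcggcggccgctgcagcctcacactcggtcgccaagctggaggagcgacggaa
Slc4a4 start 2: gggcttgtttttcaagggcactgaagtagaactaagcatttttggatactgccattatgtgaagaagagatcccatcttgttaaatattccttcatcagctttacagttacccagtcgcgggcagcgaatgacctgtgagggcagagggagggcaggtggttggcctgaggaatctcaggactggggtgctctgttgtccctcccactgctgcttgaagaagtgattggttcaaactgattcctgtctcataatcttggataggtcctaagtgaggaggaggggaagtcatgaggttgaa
On both strands, TATAAA (the TATA box) was present in 13.6% of all 32851 windows of this length. Of the other motifs searched, that of GATA factors (AGATAA) was in 11.2%, that of CDX2 (TTTATG) in 11.9% and that of HNF4A (CAAAGTCC) in 1.42% of windows, and none of these letters was found in the 3 windows shown. The match overlapped no other motif searched, and it is a description of letters, not of a bound site. The starts of Slc4a4 serve different transcripts, but probe positions are not in the files, so no probe is assigned to a start.

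Cftr encodes the apical chloride channel that opens on cyclic AMP and cyclic GMP signals. Its signal was -2.05 and -2.65 in control males, -2.41 and -1.69 in control females, -2.26 and -2.70 in Western males and -2.17 and -2.0 in Western females. The highest array was Control female 2, the lowest Western male 2, and the diets overlapped over most of their range. The mean was -2.20 ± 0.42 (SD, n = 4) over the control arrays and -2.28 ± 0.29 over the Western arrays, a log2 difference of -0.09 ± 0.25 (SE), with a 95% interval of -0.69 to 0.52 and an adjusted p of 0.999 by limma. Without the library labelled Control female 1 the difference was -0.27, and without Control female 2 it was 0.09. In group order, Western males (-2.48) and control males (-2.35) lay below Western females (-2.09) and control females (-2.05), and no neighbouring groups were separate. Female minus male was 0.34 ± 0.25 on the log2 scale (limma adjusted p 0.903), 0.52 without the library labelled Control female 1 and 0.16 without Control female 2.

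Slc12a2 encodes NKCC1, the basolateral sodium-potassium-chloride cotransporter that loads chloride into secreting cells. It measured 3.02 and 3.21 in control males, 3.00 and 2.55 in control females, 2.97 and 3.14 in Western males and 2.42 and 3.55 in Western females. The lowest and the highest of the 8 arrays were both Western females, 1.13 log2 units apart. The control mean was 2.95 ± 0.28 (SD, n = 4), the Western mean 3.02 ± 0.47 and the log2 difference 0.08 ± 0.28 (SE; 95% interval -0.61 to 0.77; limma adjusted p 0.999). It was 0.19 without the library labelled Control female 1 and -0.04 without Control female 2. Group means were 3.12, 3.06, 2.99 and 2.77 in control males, Western males, Western females and control females. Neighbours in this order overlapped, while control males (3.02 and above) and control females (3.00 and below) did not. The 3.00 belongs to the library labelled Control female 1, in which Y-linked genes read as in males.

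Slc12a2 ran beside the crypt and cycling cell list on some arrays. Centred on their means over the 8 arrays, that list stood at -0.29 on Control female 2, -0.43 on Western female 1 and 0.33 on Western female 2. Slc12a2 stood at -0.44, -0.56 and 0.57 on these arrays. The Paneth cell list (4 of 7 genes tested) also ran beside it there, at -0.25, -0.50 and 0.47. Slc12a2 and the crypt and cycling cell list parted in the males: Control male 1, the highest array for the list at 0.41, had Slc12a2 at 0.04. On Control male 2 that list stood at -0.11 and Slc12a2 at 0.23. The Paneth cell list stood at 0.33 and -0.04 on the control males. The summed level of the crypt and cycling cell list was 29.9 to 37.9 on the control and 26.7 to 41.0 on the Western diet. The part of either list in the Slc12a2 values was not tested.

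**Figure D2:**
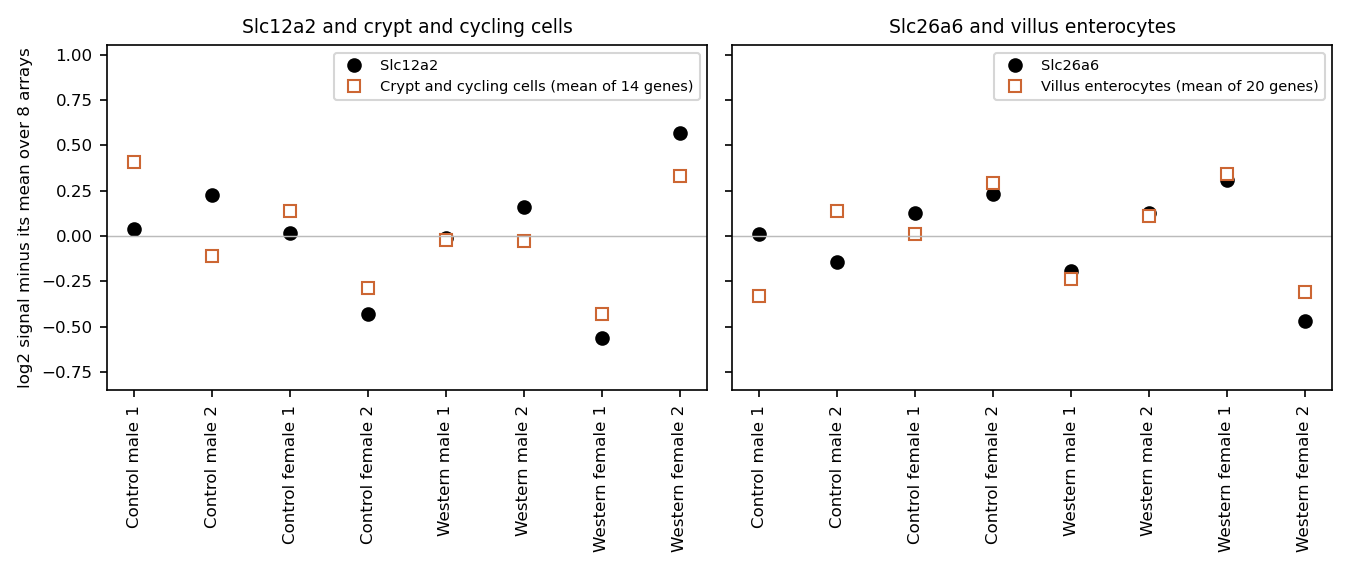
Log2 signal minus its mean over 8 arrays (vertical axis) on each array (horizontal axis), for Slc12a2 beside the mean of 14 crypt and cycling cell genes (left) and for Slc26a6 beside the mean of 20 villus enterocyte genes (right), with filled circles for the transport gene and open squares for the list. The Western females stand at opposite ends in both panels, with Slc12a2 at -0.56 and 0.57 and Slc26a6 at 0.31 and -0.47.

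Slc4a4 encodes the sodium-bicarbonate cotransporter NBCe1, which takes up bicarbonate across the basolateral membrane. The probe used for it measured 0.66 and 0.48 in control males and 0.27 and 0.15 in control females. On the Western diet it measured 0.08 and -0.36 in males and -0.62 and -0.32 in females. Every Western array lay below every control array, the nearest being Western male 1 at 0.08 and Control female 2 at 0.15. The mean was 0.39 ± 0.23 (SD, n = 4) over the control arrays and -0.30 ± 0.29 over the Western arrays. The log2 difference was -0.70 ± 0.17 (SE; 95% interval -1.12 to -0.28), a 1.62-fold lower level on the Western diet, with an unadjusted p of 0.00673 and an adjusted p of 0.994 over all genes by limma.

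By group, Slc4a4 was highest in control males (0.57), followed by control females (0.21), Western males (-0.14) and Western females (-0.47). The ranges of control males and control females were separate, as were those of control females and Western males, while those of Western males and Western females overlapped. The control females are Control female 2 (0.15), the array that stands apart, and the library labelled Control female 1 (0.27). In the latter, Y-linked genes read as in males. The diet difference was -0.71 ± 0.24 in males and -0.68 ± 0.24 in females. The difference between these was 0.03 ± 0.34, with a 95% interval of -0.81 to 0.87 (limma adjusted p 1). The diet difference in females was -0.62 without the library labelled Control female 1 and -0.74 without Control female 2. Female minus male, over both diets, was -0.34 ± 0.17 (unadjusted p 0.0932, adjusted p 0.903 by limma), with -0.37 without the library labelled Control female 1 and -0.31 without Control female 2.

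The Slc4a4 diet difference was -0.67 without the library labelled Control female 1 and -0.73 without Control female 2, and lay between -0.81 and -0.59 when each array in turn was left out. Within the first slide, which held 1 array of every group, it was -0.74, and between the females of the third slide -0.47. Mean levels of markers of other cell types also differed between the diets, with overlap between the arrays. All 10 smooth muscle genes had lower means on the Western diet (median log2 difference -1.08), with a summed level of 7.35 to 66.3 on the control and 11.6 to 22.3 on the Western arrays. All 6 tested genes of neurons and glia (of 9 listed) were also lower (median -0.458), with summed levels of 0.279 to 0.53 and 0.263 to 0.35. Of the red blood cell list 5 of 6 tested genes were higher (median 1.36), with summed levels of 16.4 to 72.9 and 53.0 to 149. Of these, 4 had an unadjusted p under 0.05 by limma, where 134 of all 21303 genes did in the higher direction. The smooth muscle list was highest on Control male 1, at 3.26 over its mean, while the other control arrays (-1.12, -0.22 and 0.14) lay within the range of the Western arrays (-1.34 to 0.16). None of its genes had an unadjusted p under 0.05. Without Control male 1 the Slc4a4 difference was -0.65. The part of these lists in the Slc4a4 values was not tested.

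The 3 probes of Slc4a4 carry the same accession and did not all give the same reading. Probe A_55_P1959228 measured 0.57, 0.56, -0.05 and 0.03 on the control arrays and -0.05, -0.46, -0.75 and -0.29 on the Western arrays. Its log2 difference was -0.67 ± 0.18 (unadjusted p 0.00959, adjusted p 0.989 by limma over probes), and here Western male 1 and the library labelled Control female 1 met at -0.05. Probe A_52_P457567 measured -1.57, -3.10, -1.76 and -2.98 on the control arrays and -1.93, -2.0, -2.15 and -3.22 on the Western arrays, a difference of 0.03 ± 0.47. On this probe the 5 arrays of the first scan day lay between -2.15 and -1.57 and the 3 arrays of the second day between -3.22 and -2.98. It was the 1 member probe of 15 that separated the scan days in this way, as 4.29% of 25717 probes did. Over the mean of its kept probes, the Slc4a4 diet difference was -0.44, against -0.70 with the probe used, and the diets overlapped.

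**Figure D3:**
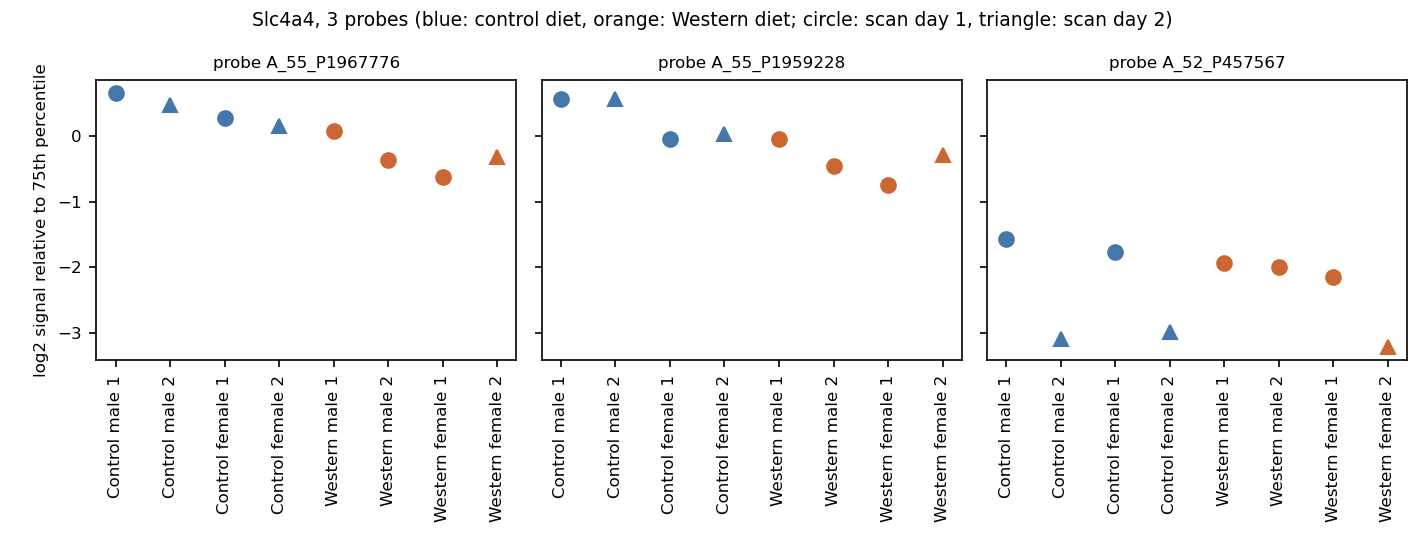
Log2 signal relative to the array's 75th percentile (vertical axis) of the 3 Slc4a4 probes on each array (horizontal axis), blue for control and orange for Western diet, circles for scan day 1 and triangles for scan day 2. The first and second probe are lower on the Western arrays by 0.70 and 0.67 on average, while the third follows the scan day, with triangles between -3.22 and -2.98 and circles between -2.15 and -1.57.

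Slc26a3 encodes DRA, the apical chloride-bicarbonate exchanger whose loss causes congenital chloride diarrhoea. It measured 1.91 and 1.98 in control males and 1.99 and 1.92 in control females. On the Western diet it measured 2.30 and 2.40 in males and 2.09 and 2.14 in females. Every Western array lay above every control array, and the control arrays lay within 0.08 log2 units of each other within each sex. The mean was 1.95 ± 0.04 (SD, n = 4) over the control arrays and 2.23 ± 0.14 over the Western arrays, and the SD of the control arrays was smaller in 0.597% of 16923 genes above background on every array. The log2 difference was 0.28 ± 0.13 (SE; 95% interval -0.03 to 0.60), a 1.22-fold higher level, with an unadjusted p of 0.0702 and an adjusted p of 0.994 by limma.

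By group, Slc26a3 stood at 2.35 in Western males, 2.12 in Western females, 1.95 in control females and 1.95 in control males. Western males lay above Western females and these above the controls without overlap, while the control sexes overlapped. The diet difference was 0.40 ± 0.18 in males and 0.16 ± 0.18 in females. In females it was 0.20 without the library labelled Control female 1 and 0.13 without Control female 2. The difference between the sexes was -0.24 ± 0.26 (95% interval -0.87 to 0.39; limma adjusted p 1). Without the library labelled Control female 1 the diet difference was 0.30, without Control female 2 it was 0.27, and leaving out each array in turn gave 0.26 to 0.31. It was 0.25 within the first slide and 0.22 between the females of the third. All 3 tested duodenum genes (of 6 listed) had higher means on the Western diet (median log2 difference 0.564), with overlap between the arrays. That list stood at 1.27 over its mean on Western male 1 and at -0.03 on Western male 2, the highest array for Slc26a3. Of the 7 ileum genes 2 were higher and 5 lower (median -0.113). The part of region in the Slc26a3 values was not tested.

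Whether the diets overlapped depended on the scaling for both genes. With the 75th percentile taken over probes above background on all arrays, the lowest control array of Slc4a4 was at -2.06 and the highest Western array at -2.05. For Slc26a3 the highest control array was then at -0.19 and the lowest Western array at -0.21. Quantile normalization kept both genes apart, Slc26a3 narrowly, with a highest control value of 2.0 and a lowest Western value of 2.01. The log2 differences moved less, to -0.72 and -0.69 for Slc4a4 and to 0.26 and 0.27 for Slc26a3 under these scalings.

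Slc26a6 encodes PAT1, the brush border exchanger of chloride for bicarbonate and oxalate. It measured 6.64 and 6.49 in control males, 6.76 and 6.86 in control females, 6.44 and 6.76 in Western males and 6.94 and 6.16 in Western females. The highest and the lowest array were again the Western females, here in the opposite order to Slc12a2. The control mean was 6.69 ± 0.16 (SD, n = 4), the Western mean 6.57 ± 0.35 and the log2 difference -0.11 ± 0.22 (SE; 95% interval -0.64 to 0.42; limma adjusted p 0.999). Without the library labelled Control female 1 it was -0.14, and without Control female 2 it was -0.09. Its other probes gave -0.17 ± 0.19 and -0.28 ± 0.17. Slc26a6 ran beside the villus enterocyte list, which stood at 0.34 over its mean on Western female 1 and -0.31 on Western female 2, where Slc26a6 stood at 0.31 and -0.47. The pair parted in the control males, with the list at -0.33 and 0.14 and Slc26a6 at 0.01 and -0.14. The summed level of that list was 2640 to 3520 on the control and 2480 to 3810 on the Western diet. Its part in the Slc26a6 values was not tested.

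Slc9a3 encodes NHE3, the brush border sodium-proton exchanger of salt absorption. It measured -4.63 and -4.97 in control males, -5.43 and -4.08 in control females, -4.68 and -5.31 in Western males and -4.18 and -5.39 in Western females. The extremes were both control females, and all 4 groups overlapped. The control mean was -4.78 ± 0.57 (SD, n = 4), the Western mean -4.89 ± 0.57 and the log2 difference -0.11 ± 0.42 (SE; 95% interval -1.13 to 0.91; limma adjusted p 0.999). Without the library labelled Control female 1 it was -0.45, without Control female 2 it was 0.23, and it was 0.60 within the first slide and -1.31 between the females of the third. The probe was dim: its processed intensity was 14.5 to 35.3, where the lowest intensity of any probe well above background was 10.9 to 15.9 per array.

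Car1 encodes a cytosolic carbonic anhydrase known from red cells and colon. It measured -2.96 and -3.50 in control males, -3.73 and -3.41 in control females, -3.41 and -3.76 in Western males and -3.64 and -3.79 in Western females. Control male 1 stood above the other arrays, which overlapped between the diets. The control mean was -3.40 ± 0.32 (SD, n = 4), the Western mean -3.65 ± 0.17 and the log2 difference -0.25 ± 0.20 (SE; 95% interval -0.73 to 0.23; limma adjusted p 0.994). It was -0.33 without the library labelled Control female 1 and -0.17 without Control female 2. The red cell list had 5 of 6 tested genes higher on the Western diet, 4 of them at an unadjusted p under 0.05 by limma. The part of that list in the Car1 values was not tested. A second Car1 probe was above background on 1 array, Control female 2, where it read -2.76 against -8.05 to -6.29 on the others.

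Car2 encodes the cytosolic carbonic anhydrase of secreting and absorbing epithelia. It measured -1.90 and -1.62 in control males, -2.89 and -0.86 in control females, -0.94 and -2.26 in Western males and -0.89 and -1.83 in Western females. Its range of 2.03 log2 units was the widest of the 9 genes, and the control females alone spanned it. The control mean was -1.82 ± 0.84 (SD, n = 4), the Western mean -1.48 ± 0.67 and the log2 difference 0.34 ± 0.55 (SE; 95% interval -1 to 1.67; limma adjusted p 0.999). The library labelled Control female 1 held the lowest value: without it the difference was -0.17, and without Control female 2, which held the highest, it was 0.84. Within the first slide it was 1.48 and between the females of the third slide -0.97.

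Car4 encodes a carbonic anhydrase anchored to the outer face of the apical membrane. It measured 4.43 and 5.42 in control males, 4.94 and 5.86 in control females, 4.38 and 5.24 in Western males and 4.84 and 4.87 in Western females. Control female 2 was highest and Western male 1 lowest, with overlap of every pair of neighbouring groups. The control mean was 5.16 ± 0.62 (SD, n = 4), the Western mean 4.83 ± 0.35 and the log2 difference -0.33 ± 0.35 (SE; 95% interval -1.19 to 0.53; limma adjusted p 0.994). It was -0.56 without the library labelled Control female 1 and -0.10 without Control female 2. The other Car4 probe, A_55_P2087182, read 1.33, 0.73, 1.17 and 0.58 on the control arrays and 1.60, 1.23, 0.84 and 0.93 on the Western arrays, a difference of 0.20 ± 0.23. Among the control arrays it was low where the probe used was high.

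**Figure D4:**
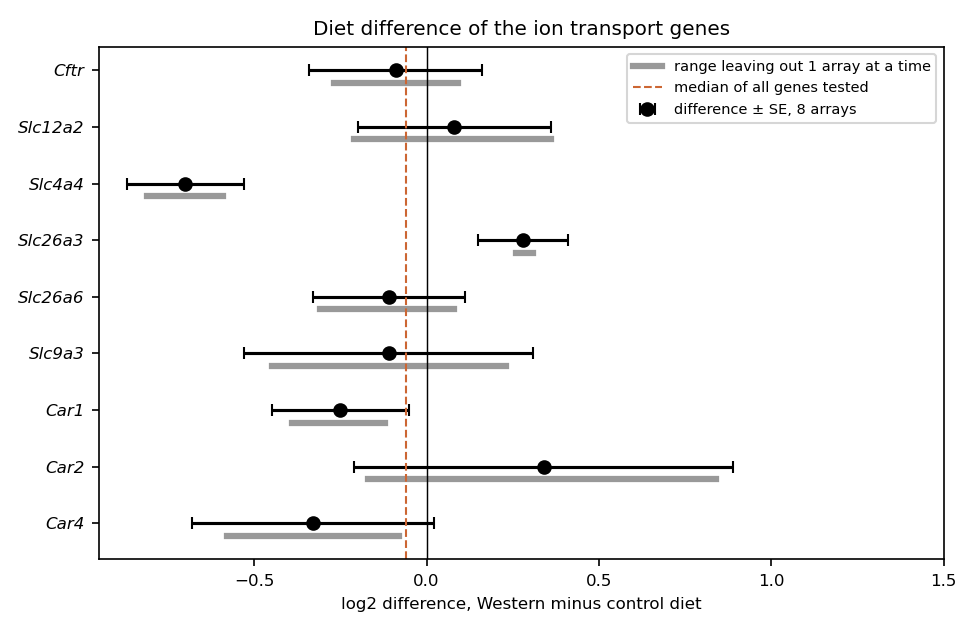
Log2 difference between Western and control diet (horizontal axis) for the 9 genes (vertical axis), with black points and bars for the difference and its SE over 8 arrays, grey bars for the range when each array in turn is left out, and a dashed line at the median of all genes tested (-0.0612). The grey bars of Slc4a4 (-0.81 to -0.59), Slc26a3 (0.26 to 0.31), Car1 (-0.39 to -0.12) and Car4 (-0.58 to -0.08) stay on 1 side of 0, and those of the other genes cross it.

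In the other comparisons none of the 9 genes passed an adjusted p of 0.05 with limma either, and 0% of all genes were called in each. For female minus male 824 of all genes had an unadjusted p under 0.05, and the lowest adjusted p of a member was 0.903. The sex difference was positive for 5 members and negative for 4, with a median of 0.0639. Without Control female 2 it turned from 0.13 to -0.21 for Slc9a3 and from 0.06 to -0.44 for Car2, and without the library labelled Control female 1 it was 0.47 and 0.57. For the diet difference within males, within females and between the sexes, 277, 1094 and 345 of all genes had an unadjusted p under 0.05.

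By the likeness rule, the 3 members with the widest range were Car2, Car4 and Slc9a3, and their profiles over the 8 arrays were compared with those of 12392 genes. Likeness was the root mean square distance between profiles centred on their own means. Car4, itself 0.465 from a flat profile, was nearest to Tbx6 (0.0504), Nrgn (0.0713) and Actr3b (0.0966). Slc9a3 (0.497 from flat) was nearest to Hs3st1 (0.199), Wwc2 (0.212) and Slc39a9 (0.218). Car2 (0.680 from flat) was nearest to Slfn2 (0.27), Cmtm8 (0.31) and Acot11 (0.329), so its nearest genes followed it less closely than those of Car4 did. The 3 genes nearest to Car4 peaked, as the probe used for it did, on Control female 2, the array that stands apart, at 0.80 to 0.94 over their means. The other Car4 probe was lowest on that array, at 0.58.

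The other genes of ion transport were read from 10 lists of 166 genes, of which 162 were on the array and 131 were tested. None passed the limma test, where 0% of all genes did. Of the 131 genes 39 had a higher and 92 a lower mean on the Western diet, which is 29.8% higher, against 39.8% over all genes tested. The all-gene share was 58.6% with quantile normalization, and the list counts here and below were made with the main scaling only. Their median log2 difference was -0.114. At an unadjusted p under 0.05 there were 0 higher and 8 lower, where 3.72% of all genes reached that in the lower direction. In the higher direction 134 of all 21303 genes did. Of the 8 genes, P2ry4, Lpar2 and Atp1b2 were above background on only 3 arrays each and Slc4a3 on 4. The diets did not overlap for 0 higher and 5 lower genes, against 0.827% and 2.35% of all genes. P2ry4 is among these 5 and passed the filter on dim probes through the control arrays alone.

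Of the chloride and anion channels 5 were higher and 17 lower (median -0.209). Ano1, a calcium-activated chloride channel, differed by 0.37 ± 0.28 on the log2 scale, the chloride channel gene Clcn2 by -0.25 ± 0.19 and the goblet cell product Clca1 by -0.05 ± 0.22, while Best2 did not pass the filter on dim probes. Ano7, chosen because its diets did not overlap, measured -2.99 to -2.70 on the control and -3.41 to -3.10 on the Western diet (-0.45 ± 0.14, unadjusted p 0.0197, limma adjusted p 0.994).

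Of the SLC26 exchangers outside the members 3 were tested, 2 higher and 1 lower (median 0.207). Slc26a2, a sulfate transporter, differed by 0.23 ± 0.16, and Slc26a9 did not pass the filter. Of the SLC4 bicarbonate transporters 3 were higher and 5 lower (median -0.117). The anion exchanger gene Slc4a2 differed by -0.16 ± 0.22 and the sodium-bicarbonate cotransporter gene Slc4a7 by -0.12 ± 0.26, with 0.52 on its other probe. Slc4a1, the red cell exchanger, differed by 0.43 ± 0.62 beside red cell list values that were higher on the Western diet, and the part of red cells was not tested.

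Of the sodium-proton exchangers and their scaffolds 3 were higher and 8 lower (median -0.0801). The exchanger genes Slc9a2 and Slc9a8 differed by -0.02 ± 0.27 and -0.08 ± 0.21. A second probe of Slc9a8 gave -0.59. The NHE3 scaffolds Slc9a3r1 and Pdzk1 differed by -0.21 ± 0.23 and 0.18 ± 0.19.

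Of the carbonic anhydrases outside the members 2 were higher and 8 lower (median -0.268). Car8, Car9, Car12 and Car13 differed by -0.05 ± 0.34, -0.32 ± 0.21, 0.30 ± 0.38 and -0.16 ± 0.18. A second probe of Car8 gave 0.08. Car3, also a marker of fat cells, read 0.12 on Western female 2 and -6.57 to -3.32 on the other arrays, and was above background on 5 arrays. On Western female 2 the fat cell list (6 of 8 genes tested) stood 4.28 above its mean, against -1.60 to 0.54 elsewhere, and its part in the Car3 value was not tested. Car15, chosen because its diets did not overlap, had diets that met at -3.03. It differed by -0.64 ± 0.20 (1.56-fold lower, unadjusted p 0.0185, limma adjusted p 0.994). The diets of Car7 did not overlap either (-0.26 ± 0.14, unadjusted p 0.112 by limma).

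Of the cation-chloride cotransporters and their kinases 4 were higher and 7 lower (median -0.105). The potassium-chloride cotransporter gene Slc12a7 differed by -0.32 ± 0.21, and the kinase genes Wnk1 and Stk39, whose products activate NKCC1, by -0.12 ± 0.17 and 0.12 ± 0.14. Of the potassium channels and sodium pump genes 3 were higher and 14 lower (median -0.225). The basolateral potassium channel genes Kcnq1, Kcne3 and Kcnn4, which sustain chloride secretion, differed by -0.13 ± 0.21, -0.22 ± 0.30 and -0.35 ± 0.24. The sodium pump subunit gene Atp1b1 differed by -0.47 ± 0.21.

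Fxyd1, whose product phospholemman regulates the sodium pump and is known from muscle, was the gene of that list chosen for diets that did not overlap. It measured -0.26 to 0.98 on the control and -1.52 to -0.34 on the Western diet, a difference of -1.36 ± 0.39 (2.56-fold lower, unadjusted p 0.0125, limma adjusted p 0.994). All 10 smooth muscle markers had lower means on the Western diet, none with an unadjusted p under 0.05, and apart from Control male 1 (3.26) the control arrays lay within the range of the Western arrays for that list. Control male 1 held Fxyd1 at 0.28. The part of smooth muscle in the Fxyd1 value was not tested.

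Of the proton pump genes 7 were higher and 9 lower (median -0.0441). Atp12a, the non-gastric proton-potassium pump, was above background on 4 arrays (-0.69 ± 0.52). Of the sodium and water channels 6 were higher and 5 lower (median 0.16). The epithelial sodium channel gene Scnn1a differed by -0.04 ± 0.18. Aqp8, a water channel that is also on the list of colon markers, read -4.94 to -3.19 on the control and -4.51 to -2.62 on the Western diet (1.01 ± 0.55). Of that colon list 6 of 11 genes were tested, 3 higher and 3 lower.

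Of the signals that set secretion 4 were higher and 18 lower (median -0.127). The guanylin genes Guca2a and Guca2b differed by -0.11 ± 0.21 and -0.01 ± 0.29 and their receptor gene Gucy2c by -0.11 ± 0.18. Vipr1 and Ptger4, receptors for vasoactive intestinal peptide and prostaglandin E2, differed by 0.14 ± 0.23 and -0.14 ± 0.35. A second probe of Vipr1 gave -0.07. The nucleotide receptor gene P2ry4, chosen for diets that did not overlap, was above background on 3 control arrays and on 0 Western arrays. It passed the filter on dim probes through the control arrays alone, so that its inclusion favoured a lower Western value. Its measured means were -4.40 and -6.61. The limma adjusted p of this difference was 0.708. Set against the dimmest probe above background on each Western array, the control mean was 2.32-fold higher. That is not a lower limit, because the control mean includes an array on which the probe was not above background. The control arrays read -4.72, -5.37, -4.63 and -2.87. The highest of these was Control female 2, the array that stands apart, and the fold without it is not given here.

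**Figure D5:**
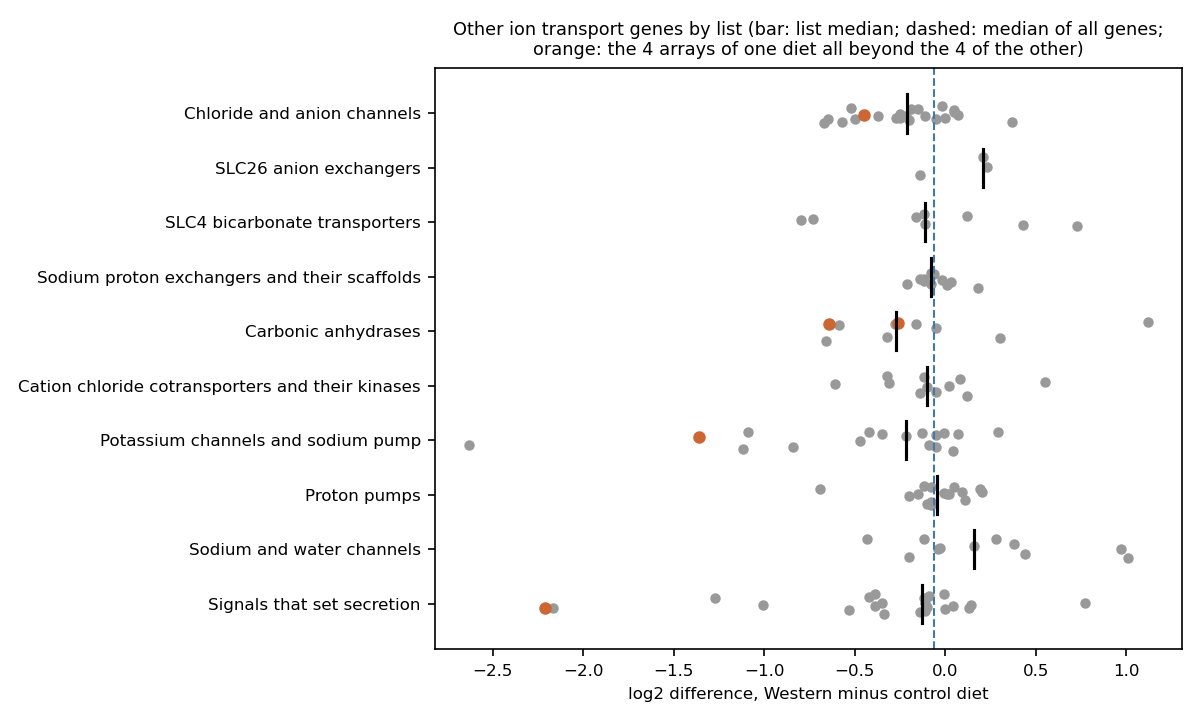
Log2 difference between Western and control diet (horizontal axis) of the tested genes of 10 ion transport lists (vertical axis), 1 point per gene, with a bar at each list's median, a dashed line at the median of all genes (-0.0612) and orange points for genes whose diets do not overlap. The list medians lie between -0.268 (carbonic anhydrases) and 0.207 (SLC26 exchangers, 3 genes), and the 5 orange points are all on the lower side. P2ry4, 1 of these 5, passed the filter on dim probes through the control arrays alone.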

How the data were processed

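Total RNA from small intestine was labelled with Cy3 and hybridised to 8 single-colour Agilent arrays, 2 per group. The deposited files hold the scanner intensity of each spot, background-subtracted but not normalized between arrays, made by Feature Extraction 10.7.3.1 on design 026655 per the file headers, which name build mm9. The log2 processed signal minus each array's log2 75th percentile was used; 1377 control spots and 94 to 216 outlier spots per array were left out and 399 repeated probes averaged. Probes were named through RefSeq accessions (26412 of 39429 matched a symbol), kept if well above background on at least 2 arrays (25733 kept), and the brightest kept probe stood for a gene; no coordinates were taken from the files.

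Differences were fitted with limma 3.58.1 (R 4.3.3) over all 8 arrays in 4 groups, with Benjamini-Hochberg adjustment over 21303 genes. The fit was also run on simulated data, with changes larger than the diet difference of any member. That run does not show whether differences of the members' size would be called. The members and lists were chosen with earlier results of these data known. Named were all members, partners picked by role, the gene with the smallest p per list and direction whose diets did not overlap, and the nearest profiles; some partners are not reported here. The number of arrays limits the precision.

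Alternatives were 2 other scalings, normexp background correction (offset 50, on the median signal, because the files used hold no mean signal), no filter or a stricter one, the mean of a gene's probes, single probes, replicate, scan day and slide blocks, single slides, array weights, and leaving out each array. Single probes and normexp on the median signal were added after the data were seen. Slide 1 held the first array of every group, slide 2 Western male 2, and slide 3 the others; slides 1 and 2 were scanned on 1 day.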

Additional observations from a re-analysis of the deposited data

How the results depend on the processing

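With limma, 0 members were called under every setting in which a test could be run, and the adjusted p of the Slc4a4 diet difference ranged from 0.234 (without the library labelled Control female 1) to 1. Slc26a3 kept the sign of its diet difference under all settings and Slc4a4 under all but 1 single probe. The number of members whose diets did not overlap was 2, but 0 with the 75th percentile over probes above background on all arrays, and 1 (Slc26a3) with the mean of a gene's probes. Leaving out each array in turn gave 0 to 1 genes called for diet, 0 to 2 for diet in females, 0 to 2 for the difference between the sexes, 0 to 3 for sex, and 942 to 1656 genes whose diets did not overlap (677 with all arrays, fewer because 4 arrays must lie beyond 4). Quantile normalization moved the median diet difference of all genes from -0.0612 to 0.0466, and the share of higher genes among those with an unadjusted p under 0.05 from 14.5% to 60.3%.

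The sign turned in these cases, and the cause was not tested. With quantile normalization the diet difference was 0.06 for Cftr, 0.56 for Slc9a3 and 0.25 for Car1, and the sex difference of Slc9a3 -0.44. With the mean of probes the diet by sex difference of Slc4a4 was -0.11 and the sex difference of Car4 -0.04. With scan day as a block the sex difference of Car2 was -0.05. With slide as a block the diet difference was 0.05 for Cftr and 0.03 for Slc9a3, the sex difference -0.01 for Slc9a3 and -0.38 for Car2, and the diet by sex difference -0.18 for Cftr, 0.01 for Slc26a6, -0.11 for Slc9a3, -0.19 for Slc4a4 and -0.53 for Car2. Within slide 1 the diet difference was 0.01 for Cftr, 0.60 for Slc9a3 and -0.31 for Slc12a2, the sex difference -0.14 for Cftr, -0.15 for Slc9a3 and -0.47 for Car2, and the diet by sex difference 0.39 for Slc26a6, -0.53 for Slc12a2 and -0.31 for Slc4a4. Within slide 3 the sex difference of Car1 was 0.09 and the diet difference of Car2 -0.97. On single probes the diet difference was 0.20 for Car4 and 0.03 for Slc4a4.

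Leaving out each array in turn gave diet differences of -0.27 to 0.09 for Cftr, -0.31 to 0.08 for Slc26a6, -0.45 to 0.23 for Slc9a3, -0.21 to 0.36 for Slc12a2 and -0.17 to 0.84 for Car2. The sex difference ranged from -0.10 to 0.29 for Slc26a6, -0.21 to 0.47 for Slc9a3, -0.49 to 0.08 for Slc12a2 and -0.44 to 0.57 for Car2. The diet by sex difference ranged from -0.27 to 0.45 for Cftr, -0.68 to 0.10 for Slc26a6, -0.51 to 0.85 for Slc9a3, -0.29 to 0.84 for Slc12a2, -0.19 to 0.25 for Slc4a4, -0.06 to 0.48 for Car1, -0.66 to 1.37 for Car2 and -0.93 to 0.06 for Car4.

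Whether replicate numbers pair the arrays was not settled. The correlations of same-numbered arrays' deviations were -0.119, 0.352, -0.0906, -0.0622, 0.182 and -0.0808. The first array of every group was on slide 1, so a pairing cannot be told apart from the slide. With the replicate block 0 genes were called for diet, 1036 had an unadjusted p under 0.05 against 927, and the diet differences of Slc4a4 and Slc26a3 were -0.70 and 0.28. Normexp on the mean signal was not run. Slide 2 holds 1 array, which adds nothing to a fit with slide as a block. With 2 arrays per group, a group left with 1 array is assumed to vary like the others.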
